A study of Mus musculus with 6 samples.

Results

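The complement genes of the mouse kidney were followed in the counts of 55450 annotated genes, from which 33 were taken by symbol. They comprise recognition molecules, proteases, central and terminal components, soluble and membrane regulators, and receptors. The rule that lists them uses no measured value, but the members were chosen with earlier results of these data known. Kidney mRNA was sequenced from 3 mice of the control group, taken as day 0, and from 3 mice of the day-21 group. All were male wild-type C57BL/6J mice bought at 7 weeks of age. The day-0 mice carry the label 20% PEG as treatment, and the day-21 mice received adenine at 0.16 g/kg with potassium oxonate at 2.4 g/kg by oral gavage each day, a model of hyperuricemia-related kidney disease. The RNA came from whole kidney tissue, so fewer or more cells of a type cannot be told apart from less or more RNA per cell, and the time between the groups cannot be told apart from the treatment. The libraries held between 10963849 and 14333311 counts, and all 6 kidney markers examined, such as Umod and Slc34a1, were present in every mouse at 50.6 or more CPM (counts scaled to a common library size by TMM normalization), although 5 of the 6 were called lower on day 21.

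Complement is a cascade of plasma and tissue proteins that tags cells and debris. C1q of the classical pathway, or collectins and ficolins of the lectin pathway, bind a surface and switch on serine proteases that cleave C4 and C2. The resulting convertase cleaves C3, the point at which all pathways meet, and the alternative pathway of factors B and D amplifies that step. Fragments of C3 coat surfaces and fragments of C3 and C5 call in leukocytes through receptors, while the terminal components form a membrane pore. Host cells are shielded by regulators that inactivate the convertases or block the pore. Most circulating complement is made by the liver, and in the kidney macrophages, stromal cells and tubules are known as local sources.

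Complement transcripts were more abundant as a whole in day-21 kidneys, and C3 accounted for most of that. The 33 genes took from 0.0427% to 0.0479% of all counts in a day-0 mouse and from 0.353% to 0.404% in a day-21 mouse. Of the 33 genes, 30 had enough counts to be tested, and 18 were called higher and 5 lower on day 21, where a call needed a fold beyond 1.5 and an edgeR p, adjusted by Benjamini and Hochberg over 16592 genes, below 0.05. Among all genes tested, 19.6% were called higher and 15.5% lower, against 60% and 16.7% of these 30. The median log2 fold change of the 30 was 1.71, beside 0.03 for all genes. The filter on low counts needed 3 libraries at its cutoff, which 6 members reached in the day-21 group alone (Hc, C6, C4bp, Cd46, C3ar1 and C5ar2, of which 4 were called higher) and Colec11, called lower, in the day-0 group alone. Cr2 passed only with mice of both groups counted together. The counts and the median over the 30 are therefore a description and do not stand for all 33. The choice of members with earlier results known limits them in the same way. Of the 22 members that either group alone would have admitted, 14 were called higher and 4 lower. In 23 of the 30 the mice of the groups did not overlap, with day 21 above in 19 and below in 4. Over all genes the corresponding shares were 57.1% without overlap, 30.7% above and 26.4% below.

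**Figure D1:**
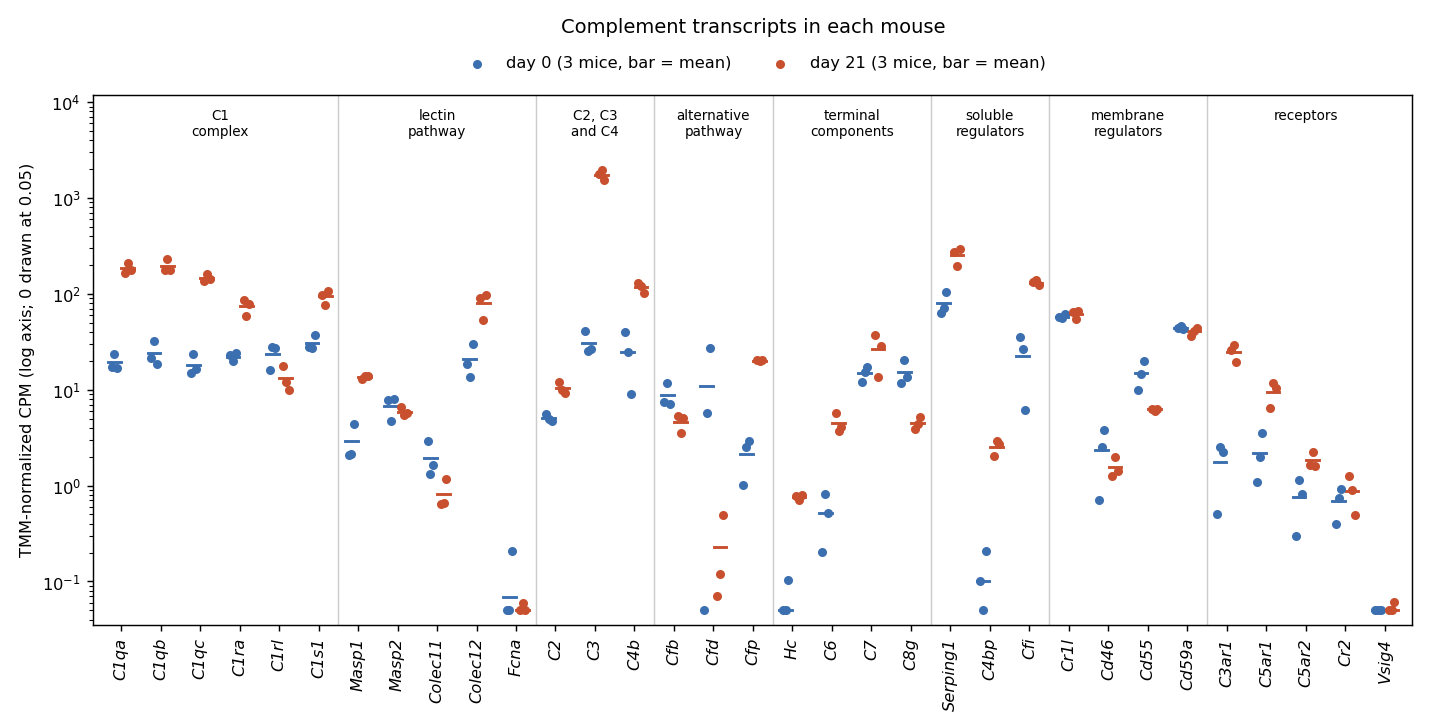
Normalized CPM (log axis, values of 0 drawn at 0.05) of the 33 complement genes in each of the 3 day-0 and 3 day-21 mice, ordered by role, with bars at the group means. C3 stands highest on day 21, between 1532 and 1966 CPM, while Cr1l and Cd59a lie at nearly the same height in both groups.

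The start-proximal sequences of 3 members are shown because C3 rose most and because C1qb and C1qc, which are neighbours, rose together. Each is the 250 bases before the annotated start, written 5′ to 3′ on the gene's strand (the reverse strand in all 3), from RefSeq on GRCm38.p6. They lie at chr17:57228137-57228386 for C3, chr4:136886201-136886450 for C1qb and chr4:136892915-136893164 for C1qc. Capitals mark matches to the motifs named after the sequences.
C3: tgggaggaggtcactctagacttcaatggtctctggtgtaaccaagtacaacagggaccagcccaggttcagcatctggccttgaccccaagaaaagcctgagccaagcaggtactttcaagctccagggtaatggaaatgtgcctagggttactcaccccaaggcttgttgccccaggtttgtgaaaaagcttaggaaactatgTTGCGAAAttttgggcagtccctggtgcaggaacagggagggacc
C1qb: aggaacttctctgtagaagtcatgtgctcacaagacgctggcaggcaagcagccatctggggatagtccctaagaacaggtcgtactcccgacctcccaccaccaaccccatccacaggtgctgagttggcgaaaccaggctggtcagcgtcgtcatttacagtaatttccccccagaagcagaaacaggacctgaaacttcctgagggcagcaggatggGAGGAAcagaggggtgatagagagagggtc
C1qc: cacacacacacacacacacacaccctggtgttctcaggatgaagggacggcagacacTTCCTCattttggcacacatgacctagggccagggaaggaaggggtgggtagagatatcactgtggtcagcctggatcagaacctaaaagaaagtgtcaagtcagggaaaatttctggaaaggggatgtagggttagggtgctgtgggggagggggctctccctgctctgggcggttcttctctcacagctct
The capitals in C3 match TTGCNNAA, a C/EBP-type sequence that lies 45 to 38 bases before the start. In C1qb and C1qc they match GAGGAA on either strand, the core of ETS factors such as PU.1. Of the 33 genes, 25 had a window in the RefSeq table, with 28 windows between them. C1qa, Masp1, Colec12, C2, C4b, Serping1 and Cfi, all called higher, and Cfb, called lower, had none. A member was counted if any of its windows matched, whereas the shares over all promoters are per window. The C/EBP-type motif was found in 4 of the 25 (C1rl, C1s1, C3 and C5ar2), and in 9.56% of all 32851 promoter windows. The ETS core was found in 6 (C1qb, C1qc, C5ar2, Cd59a, Fcna and Vsig4), and in 23.3% of all windows. An interferon-stimulated element, here GAAA and GAAA with 2 bases between them, was found in 2 members, Cd59a and Colec11, and in 2.98% of all windows. A STAT sequence, TTCNNNGAA, which reads alike on both strands, was found in C7, Colec11 and Masp2 and in 7.02% of windows. An NF-kB-type sequence, GGGA and TTCC with 2 bases between them, was found in 0 of the 25 and in 1.21% of windows, and TATAAA in C3ar1, C7 and Hc and in 12.4%. Both strands of every window were searched. A match is a description of letters and not a bound site. The windows of C3ar1 (log2 fold change 3.77) and Cfp (3.22), which rose by more than C1qb and C1qc, are not shown. That of C3ar1 held TATAAA alone, and that of Cfp held none of the motifs.

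Of the 6 genes of the C1 complex, 5 were called higher and 1 lower. C1qa, C1qb and C1qc encode the 3 chains of the recognition protein C1q and lie side by side on the reverse strand of chromosome 4 within 136880129 to 136898803 of GRCm38. On day 0 C1qa stood at 17.3, 23.6 and 17 CPM, and on day 21 at 164, 212 and 179 CPM. All day-21 mice thus lay far above all day-0 mice. C1qa rose 9.54-fold, a log2 fold change of 3.25 (standard error 0.16, edgeR adjusted p = 9.9e-07). C1qb went from 24.2 ± 7.39 to 196 ± 32.5 CPM (SD, n = 3 each) and C1qc from 18.3 ± 4.51 to 146 ± 12.2 CPM (SD, n = 3 each). Their log2 fold changes were 3.01 (standard error 0.21) and 2.99 (standard error 0.17), so the 95% confidence intervals of all 3 chains overlapped. C1qa took between 29.6% and 32.7% of the C1q counts on day 0 and between 34.5% and 35.8% on day 21, a small shift in which the mice of the groups did not overlap.

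Macrophages are the best known source of C1q, and 9 of 10 macrophage markers were also called higher, with Mertk, a receptor for the uptake of dying cells, called lower. Their summed level lay between 183.6 and 208.2 CPM on day 0 and between 608.4 and 804.3 CPM on day 21. The fold of the C1q chains fell inside the range of those markers, which ran from a log2 fold change of 0.83 for Csf1r to 4.75 for Ms4a7 among the 9 that rose. On the mean log2(CPM + 0.5) scale, the C1q chains stood between 1.22 and 1.69 above all 10 markers on day 0. On day 21 they stood between 1.94 and 2.11 above them. That mean includes Mertk, whose log2 fold change was -1.06, and its fall adds to the wider gap on day 21. The gap to the 9 markers that rose was not computed, so C1q is not shown to have outpaced those. The part of macrophage number in the rise of C1q was not tested.

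**Figure D2:**
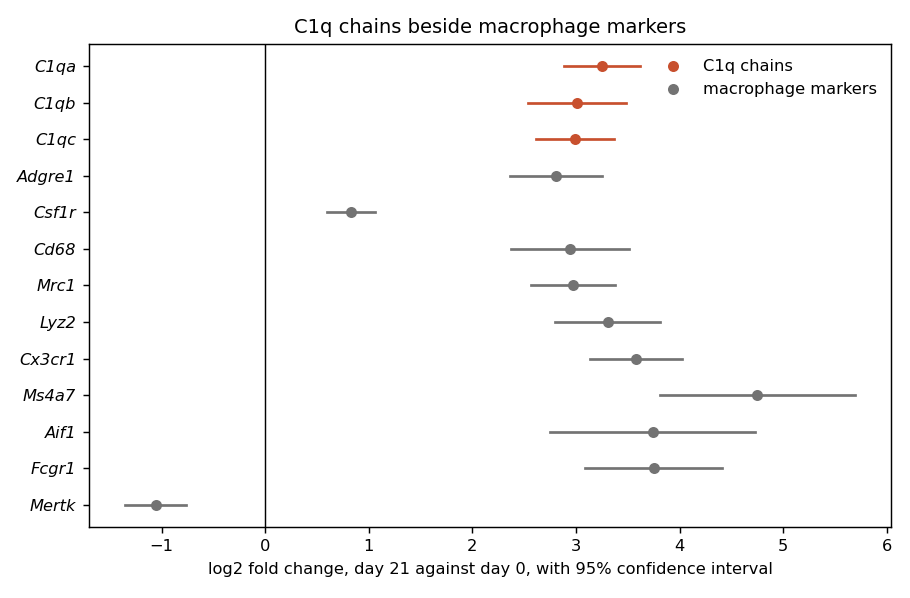
Log2 fold change of day 21 against day 0, with its 95% confidence interval, of the C1q chains (orange) and of 10 macrophage markers (grey), from edgeR with 3 mice per group. The C1q chains lie near 3, close to Adgre1, Cd68 and Mrc1, above Csf1r at 0.83 and below Ms4a7 at 4.75, and Mertk lies below 0.

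C1ra and C1s1 encode the proteases C1r and C1s, which C1q switches on. C1ra stood at 22.8, 19.8 and 23.9 CPM on day 0 and at 85.3, 58.9 and 78.2 CPM on day 21. C1s1 stood at 28.2, 27.0 and 37.4 CPM on day 0 and at 98.0, 76.7 and 108 CPM on day 21. In both genes the groups did not overlap and the day-21 replicate 2 mouse was the lowest of its group. The log2 fold changes were 1.74 for C1ra (standard error 0.16, edgeR adjusted p = 1.5e-05) and 1.61 for C1s1 (standard error 0.17, edgeR adjusted p = 3.5e-05), which are rises of 3.35-fold and 3.06-fold. Of the 50-base words in the longest C1ra transcript, 48.0% also occur in its paralog C1rb, which had 0 counts on day 0 and 2, 2 and 5 on day 21. C1s2, with 24.3% of the words of C1s1, had at most 15 counts in any mouse. How reads that match both copies were counted is not given in the sources used here. C1rl, which encodes a C1r-like protease and lies next to C1ra, was called lower, by -0.83 on the log2 scale (standard error 0.26, edgeR adjusted p = 0.023). Its values were 15.9, 27.9 and 27.0 CPM on day 0 against 17.9, 12.2 and 9.92 CPM on day 21, so that the groups overlapped. The C1rl call was lost without day-0 replicate 2, day-0 replicate 3, day-21 replicate 2 or day-21 replicate 3, with log2 fold changes between -0.77 and -0.66 (edgeR adjusted p from 0.0581 to 0.0911).

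The lectin pathway genes moved in both directions. Masp1 encodes the lectin pathway proteases MASP-1 and MASP-3, which share a gene, and it rose 4.72-fold. It stood at 2.11, 2.14 and 4.43 CPM on day 0 and at 12.8, 14.0 and 13.9 CPM on day 21, without overlap (log2 fold change 2.24, standard error 0.28, edgeR adjusted p = 1.2e-04). Colec12, a scavenger receptor with a collectin-type lectin domain, rose from 20.8 ± 8.49 to 79.9 ± 23.6 CPM (SD, n = 3 each), a log2 fold change of 1.95 (standard error 0.29). Colec11, which encodes the soluble collectin CL-K1, known from the kidney, was covered by only 29, 16 and 16 counts on day 0, and by 9, 11 and 19 on day 21. It was called lower, but narrowly, at a log2 change of -1.23 (standard error 0.46, edgeR adjusted p = 0.048), and without day-0 replicate 1 the value was -0.86 (edgeR adjusted p = 0.198). Leaving out day-0 replicate 3 or any day-21 mouse also ended the Colec11 call (edgeR adjusted p from 0.0522 to 0.146). Colec11 passed the filter on low counts through the day-0 group alone, so its p values are a description. Masp2, the protease that cleaves C4 and C2 in this pathway, was not called, with a log2 fold change of -0.20 and a 95% confidence interval from -0.75 to 0.36. Of the exon bases of Masp2, 54.9% lie in exons of Tardbp on the other strand, so its level is uncertain. Fcna, a ficolin, had at most 2 counts in any mouse, below what could be tested.

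C3 rose more than any other gene of the 33 with counts above the floor in day-0 mice. It lies on the reverse strand of chromosome 17 from 57203970 to 57228136, and its longest transcript has 41 exons. On day 0 C3 stood at 40.9, 25.6 and 26.6 CPM, and on day 21 at 1772, 1966 and 1532 CPM. Even the lowest day-21 mouse lay far above the highest day-0 mouse. The rise was 56.7-fold, a log2 fold change of 5.83 (standard error 0.22, edgeR adjusted p = 2.5e-07), and ranked 48 among the 16592 genes tested. Leaving out each mouse in turn kept it between 5.70 and 6.05. C3 held between 4.91% and 8.45% of the counts of all 33 genes on day 0 and between 49.5% and 57.0% on day 21.

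C4b and C2 encode the substrates of the C1s and MASP-2 proteases, and both were called higher, though by far less than C3. C4b rose from 39.9, 24.7 and 8.97 CPM to 130, 122 and 103 CPM, a log2 fold change of 2.27 (standard error 0.38, edgeR adjusted p = 7.9e-04). The day-0 mice were widely spread, with replicate 3 far below the other two, and without that mouse the log2 fold change was 1.86. Of the 50-base words of C4b, 35.2% also occur in C4a, its near-identical neighbour, which had at most 7 counts in any mouse. C2 rose 2.04-fold, from 5.10 ± 0.457 to 10.4 ± 1.36 CPM (SD, n = 3 each). This corresponds to 1.03 on the log2 scale (standard error 0.20, edgeR adjusted p = 0.0019).

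The alternative pathway genes did not move together. Cfp encodes properdin, which stabilises the convertase and is made by leukocytes. It rose 9.29-fold, from 1.00, 2.56 and 2.89 CPM to 20.4, 19.8 and 20.2 CPM, with the day-21 mice within a narrow band (log2 fold change 3.22, standard error 0.28, edgeR adjusted p = 1.3e-05). Cfb encodes factor B, the protease of the alternative convertase, and was called lower. It stood at 7.52, 11.9 and 7.11 CPM on day 0 and at 5.30, 3.58 and 5.02 CPM on day 21, without overlap, which gave a log2 fold change of -0.94 (standard error 0.27, edgeR adjusted p = 0.016). Without day-0 replicate 2 the Cfb value was -0.66 (edgeR adjusted p = 0.0699), and without day-21 replicate 2 it was -0.78 (edgeR adjusted p = 0.0612), so that the call rested on those mice. The Cfb counts are uncertain for a further reason. Of its exon bases, 79.5% also belong to Gm20547, a gene model on the same strand that spans Cfb and C2 and had 0 counts in all 6 mice, which leaves 579 bases of Cfb to itself. The same model covers 58.0% of the 50-base words of C2.

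Cfd encodes factor D, also called adipsin, which cleaves factor B and is a classical product of fat cells. Its counts were 0, 70 and 265 on day 0, against 1, 2 and 8 on day 21, too uneven to pass the filter on low counts. In CPM, day 0 gave 0, 5.77 and 27.3 and day 21 gave 0.0707, 0.119 and 0.490, so that the groups overlapped (two-sided exact permutation test, p = 0.4, where 0.1 is the smallest p that 3 against 3 allow). Adipoq, the adiponectin gene of fat cells, followed the same order in the day-0 mice, with 0, 1.15 and 5.26 CPM, and was between 0 and 0.123 CPM on day 21. The 6 adipocyte markers together stood at 0.802, 3.46 and 18.8 CPM on day 0 and between 2.03 and 2.40 CPM on day 21. Not all markers followed that order. Lep, which also defines fat cells, had at most 1 count in 5 of the 6 mice and 6 counts in day-21 replicate 1, and Slc7a10 stood at 0.401, 1.24 and 1.13 CPM on day 0 and was highest in day-21 replicate 2, at 1.61 CPM. The part of attached fat in the Cfd values was not tested. With no filter, which admits genes with a count in few mice, edgeR called Cfd lower (log2 fold change -5.49), and the filter was also passed in 5 other settings, each with the same call.

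Among the terminal components, C6 and Hc rose and C8g fell. Hc encodes C5, the precursor of the fragment C5a and the starting point of the pore. It was read 0, 0 and 1 times on day 0, and 11, 12 and 13 times on day 21. Measured against a floor of 3 counts per library, Hc was at least 2.67-fold higher. Its fitted log2 fold change was 4.23 (edgeR adjusted p = 0.0027), a value that depends on the fitting. C6, the next component of the pore, rose from 0.201, 0.824 and 0.515 CPM to 5.73, 3.70 and 4.10 CPM, a log2 fold change of 3.07 (standard error 0.45, edgeR adjusted p = 3.2e-04). Both transcripts were scarce on either day and passed the filter on low counts through the day-21 group alone, so their p values are a description. C7 stood at 11.9, 15.4 and 17.3 CPM on day 0 and at 37.6, 13.5 and 28.6 CPM on day 21. Its groups overlapped only through day-21 replicate 2, and it was not called (log2 fold change 0.83, 95% confidence interval 0.13 to 1.53, edgeR adjusted p = 0.053). Without day-21 replicate 2 the C7 value was 1.15 (edgeR adjusted p = 0.00166). C8g encodes the gamma chain of C8, a lipocalin that is not needed for pore formation. It fell from 11.7, 20.5 and 13.6 CPM to 3.89, 4.35 and 5.21 CPM, a log2 fold change of -1.77 (standard error 0.25, edgeR adjusted p = 2.4e-04), with no overlap.

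Soluble regulators all rose. Serping1 encodes the C1 inhibitor, which inactivates C1r, C1s and the MASPs. It was the most abundant of the 33 per kilobase of exon on day 0 and rose from 63.8, 71.0 and 105 CPM to 272, 194 and 297 CPM (log2 fold change 1.67, standard error 0.21, edgeR adjusted p = 1.2e-04). Cfi encodes factor I, the protease that degrades C3b and C4b with the help of cofactors. It rose from 35.1, 26.5 and 6.18 CPM to 133, 138 and 123 CPM, a log2 fold change of 2.53 (standard error 0.42, edgeR adjusted p = 8.1e-04). As for C4b, the day-0 replicate 3 mouse was far below the other two, and without it the Cfi value was 2.08. C4bp, which encodes a cofactor of factor I for C4b, was covered by 1, 0 and 2 counts on day 0, and by 29, 49 and 44 on day 21. Against the floor of 3 counts per library, C4bp was at least 8.94-fold higher on day 21. Its fitted log2 fold change was 4.62 (edgeR adjusted p = 2.3e-04), a value that depends on the fitting. C4bp passed the filter on low counts through the day-21 group alone, so that p is a description.

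Of the 4 membrane regulators 0 were called higher and 1 lower, a count too small to be set apart from the 19.6% and 15.5% of all genes. Cr1l, also known as Crry, is the main rodent brake on the C3 convertase at the cell surface. It stood at 57.3, 55.5 and 61.4 CPM on day 0 and at 65.0, 54.2 and 65.5 CPM on day 21. The values were interleaved, and the log2 fold change was 0.09 with a 95% confidence interval from -0.17 to 0.34. Cd59a, which blocks the pore, had one of -0.14 with an interval from -0.39 to 0.12. The bounds correspond to 1.27-fold up for Cr1l and 1.31-fold down for Cd59a. Cd55, the decay-accelerating factor that takes convertases apart, fell from 10.03, 14.4 and 20 CPM to 6.36, 6.03 and 6.31 CPM. No day-21 mouse reached the lowest day-0 mouse, and the log2 fold change was -1.25 (standard error 0.24, edgeR adjusted p = 0.0020). Cd46, a cofactor that mice express mainly in the testis, had between 7 and 37 counts and was not called (log2 fold change -0.60, 95% confidence interval -1.74 to 0.55). When libraries were scaled by total count alone, which shifted the log2 median over all genes from 0.03 to 0.42, the sign turned for Cd59a (0.26) and Masp2 (0.19). In that setting Cr1l had a log2 fold change of 0.47 (edgeR adjusted p = 0.00528), outside the interval above and close to the shift of all genes, and its fold stayed under the 1.5 needed for a call. The bounds given for Cr1l and Cd59a are those with TMM scaling.

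Of the receptors, C3ar1 changed most. It encodes the receptor of the C3 fragment C3a, and it rose 13.7-fold, from 0.501, 2.56 and 2.27 CPM to 25.7, 29.5 and 19.4 CPM. Its log2 fold change was 3.77 (standard error 0.37, edgeR adjusted p = 2.5e-05). C3ar1 passed the filter on low counts through the day-21 group alone, so that p is a description. C5ar1, the main receptor of C5a on myeloid cells, rose from 1.1, 1.98 and 3.50 CPM to 6.43, 11.6 and 10.4 CPM, a log2 fold change of 2.12 (standard error 0.38, edgeR adjusted p = 0.0012). C5ar2, the other receptor of C5a, lies next to C5ar1 on chromosome 7. Its day-21 mice, between 1.59 and 2.27 CPM, all lay above its day-0 mice, between 0.301 and 1.15 CPM, but the adjusted p missed the threshold (log2 fold change 1.23, 95% confidence interval 0.18 to 2.28, edgeR adjusted p = 0.055). Without day-0 replicate 2 it was called (1.69, edgeR adjusted p = 0.0401). C5ar2 also passed the filter on low counts through the day-21 group alone, so its p values are a description. Cr2, the receptor for C3 fragments on B cells and follicular dendritic cells, had between 4 and 18 counts and overlapped between groups, and of the 6 B cell markers only Cd79b passed the filter. Vsig4, a receptor of resident macrophages for C3b, had 1 count in 1 mouse and 0 in the others.

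**Figure D3:**
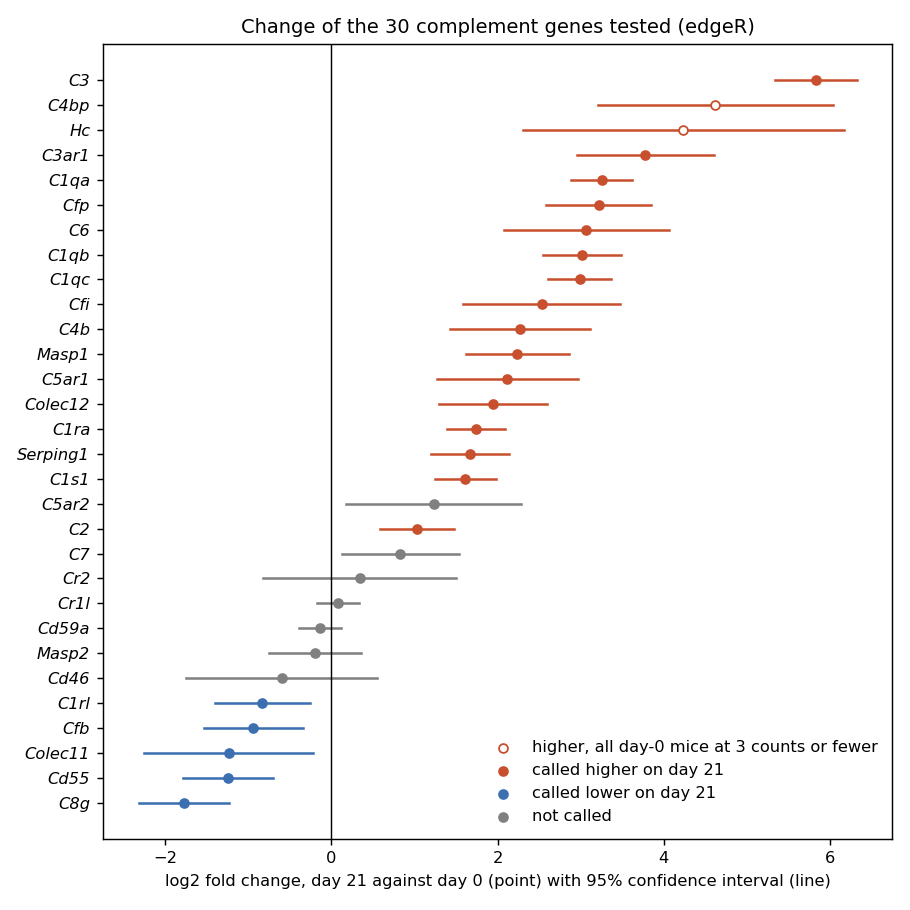
Log2 fold change of day 21 against day 0 (points) with 95% confidence intervals (lines) of the 30 complement genes tested with edgeR. C3 leads at 5.83, C8g is lowest at -1.77, and open points mark C4bp and Hc, whose day-0 mice were all at or under 3 counts, so that their position depends on the fitting and is no bound.

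Per kilobase of exon, which allows levels of different genes to be compared, the order of the genes changed. On day 0 Serping1 led with 34.4 ± 9.48 CPM per kb (SD, n = 3), followed by Cd59a with 24.6 ± 0.936, C1qb with 22.2 ± 6.79 and C1qa with 18.6 ± 3.56. Neighbours in this order differed by little more than the SD of the more variable gene of each pair, or by less. C3 was in place 12 with 6.03 ± 1.67. On day 21 C3 led with 342 ± 42.2 CPM per kb (SD, n = 3), ahead of C1qb with 180 ± 29.9, C1qa with 178 ± 23.6 and Serping1 with 109 ± 23.1. C1qa and C1qb did not differ beyond their spread, and C3 stood clear of both. Cd59a was in place 9 with 22.4 ± 2.21. C5 had the lowest day-21 level of the genes called higher, with 0.122 ± 0.00672 for Hc. The exon lengths are unions over all annotated transcripts, and 50-base words shared with C1rb, C1s2, C4a, Tardbp or Gm20547 add to the error of C1ra, C1s1, C4b, Masp2, C2 and Cfb.

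**Figure D4:**
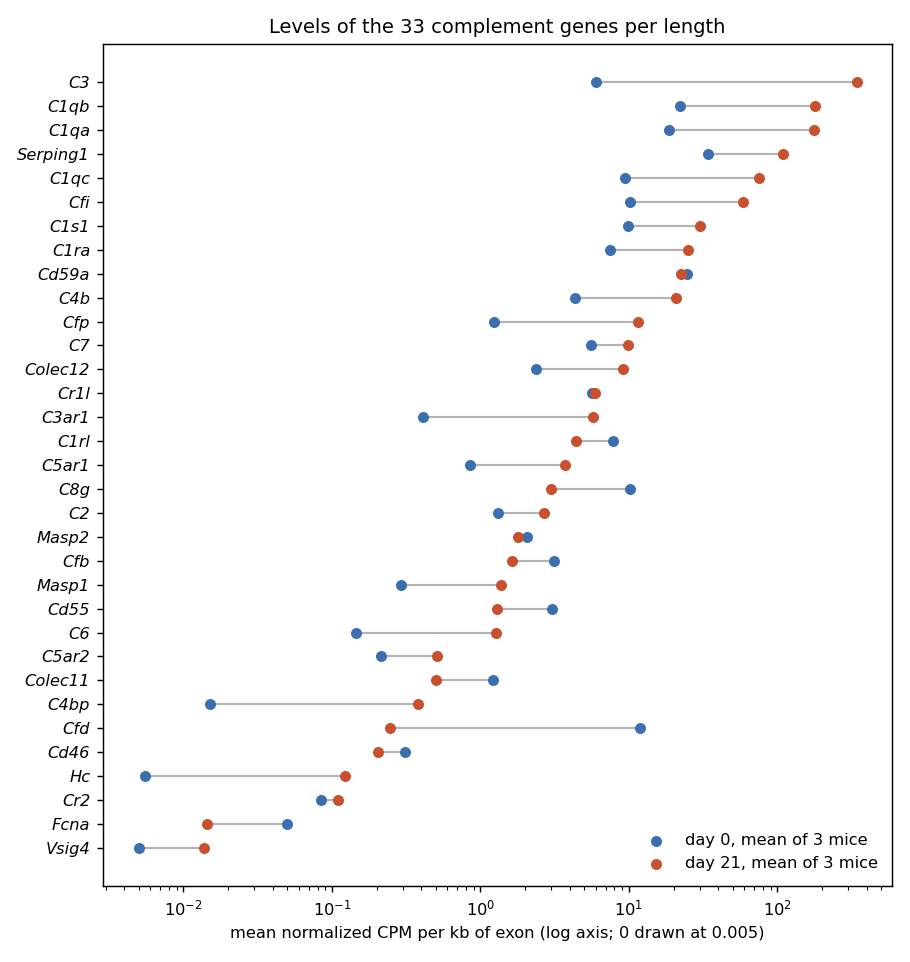
Mean normalized CPM per kilobase of exon (log axis, 0 drawn at 0.005) of the 33 complement genes on day 0 (blue) and day 21 (orange), joined by a line and sorted by the day-21 level. C3 moves from 6.03 to 342, whereas Cr1l and Cd59a stay near their day-0 points.

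Some of the spread within a group was shared by several genes. In the day-21 group the replicate 2 mouse was the lowest for all 6 fibroblast markers, with Dcn at 45.2% and Col3a1 at 52.9% of the mean of the group. It was also the lowest for C7 (50.8%), Colec12 (66.3%), Serping1 (76.3%), C1ra (79.5%) and C1s1 (81.5%), and it was the highest for C1qa (114%), C1qb (119%) and C1qc (109%). These genes were picked after their values were seen. Over all 30 members tested, that mouse was the lowest in 12, or 40%, beside 37.7% of all genes tested. All 6 fibroblast markers were called higher on day 21, and their summed level lay between 148.3 and 253.3 CPM on day 0 and between 822.4 and 1605 CPM on day 21. The part of stromal cell content in the values of these complement genes was not tested. In the day-0 group the summed level of the 6 markers of injured tubules, Spp1 and Vcam1 among them, was 1676, 780 and 538 CPM. Nearly all of that sum was Spp1, at 1614, 752 and 513 CPM. Spp1, Havcr1, Lcn2 and Vcam1 had the same order of day-0 mice as C4b and Cfi, whereas Sox9 and Krt20 did not. On day 21 the sum lay between 19470 and 23520 CPM, and all 6 markers were called higher. The part of tubular injury in the values of C3, C4b and Cfi was not tested. All 7 proximal tubule markers, Lrp2 and Slc34a1 among them, were called lower, and their summed level went from between 10990 and 12530 CPM on day 0 to between 2017 and 2682 CPM on day 21. The part of that loss in the lower values of C8g, C1rl, Cfb, Cd55 and Colec11 was not tested. Of the 6 liver markers 3 were tested and 2 called lower, and their summed level was between 36.1 and 177 CPM on day 0 and between 68.9 and 110 CPM on day 21. Most of that sum was Ttr, which was not called. It stood at 22.1, 78.6 and 166 CPM on day 0 and at 64.5, 108 and 103 CPM on day 21. Ahsg and Serpina3k were at or near 0 counts in all mice, and Alb was between 6.29 and 7.58 CPM on day 0 and between 0.613 and 1.34 CPM on day 21.

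**Figure D5:**
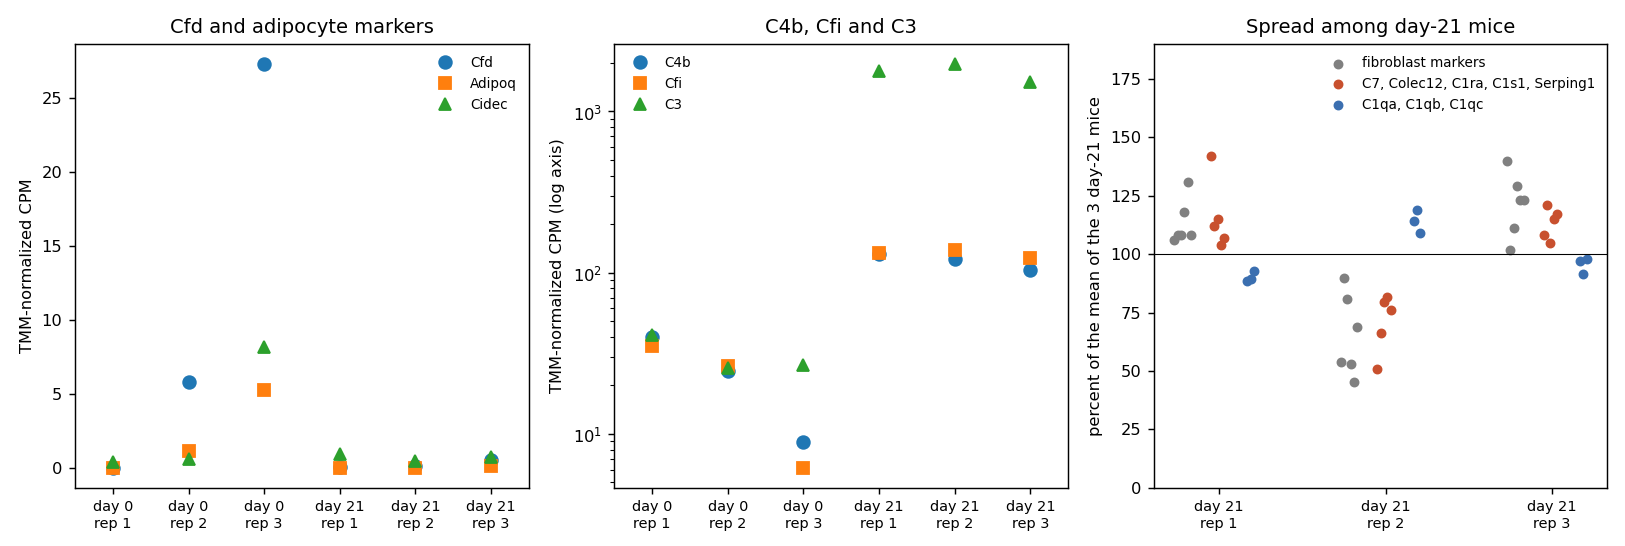
Left, CPM of Cfd and of the fat cell markers Adipoq and Cidec in each mouse, all highest in the day-0 replicate 3 mouse. Both markers were picked after their values were seen, and Slc7a10 and Lep, not drawn, were highest in day-21 mice. Middle, CPM (log axis) of C4b, Cfi and C3, with C4b and Cfi lowest in the same mouse. Right, level in each day-21 mouse as a percent of the mean of the 3, for fibroblast markers, for C7, Colec12, C1ra, C1s1 and Serping1, and for the C1q chains, where replicate 2 is low in the former groups and high in the last.

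By position, members of 1 cluster did not always share a direction. Among C4b, Cfb and C2, which lie within 34728380 to 34898265 of chromosome 17, 2 were called higher and 1 lower. The other genes within 50 kb of that cluster changed by -0.03 at the median (log2), and 1 of the 9 tested was called higher (Zbtb12, 1.41) and 1 lower (Neu1, -0.84, the lowest). Zbtb12 shares exon bases with C2 on the other strand. Among C1rl, C1ra and C1s1 on chromosome 6, 2 were higher and 1 lower, and both neighbours tested were higher, Clstn3 (1.94) and Gm16567 (1.68). Gm16567 lies antisense to C1s1 and overlaps 18.4% of its exon bases, so reads of the pair cannot be told apart unless strand was used in counting. Beside C5ar1 and C5ar2, 2 of 5 neighbours were higher, with Meis3 at 2.46 and Inafm1, the lowest, at 0.18. Next to the C1q genes, Ephb2 was higher (0.62). On chromosome 1, C4bp rose while its neighbour Cd55 fell, and both tested genes beside them were lower, from Gm16083 (-1.66) to Pfkfb2 (-0.71). Gm16083 lies antisense to Cd55 and overlaps 2.1% of the exon bases of Cd55. By the cluster of Cd46, Cr1l and Cr2, in which 0 of 3 were called, A330023F24Rik was lower (-1.97). A330023F24Rik lies antisense to Cd46, and with Mir29c and Mir29b-2 it overlaps 14.2% of the exon bases of Cd46. The limit on strand given for Gm16567 holds for these overlaps too. Card6, beside C6 and C7, was not called (0.08). Near C8g and Fcna, 2 of 9 genes were higher and 0 lower, from Clic3 (-0.66) to Ptgds (0.83).

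Of 28 further genes of the complement system, 14 were tested, of which 6 were called higher and 1 lower, and their median log2 change was 0.50. Over all genes tested, 19.6% were called higher and 15.5% lower, with a median of 0.03, and 14 genes are few to set beside those shares. The integrin chains of complement receptors CR3 and CR4, which take up C3-coated particles, were all higher, with 4.25 for Itgam, 2.83 for Itgax and 2.38 for Itgb2. Clu, whose product clusterin holds back the terminal pore, rose from between 275 and 458 CPM to between 4093 and 4485 CPM, a log2 fold change of 3.53 (standard error 0.19, edgeR adjusted p = 1.2e-06). C8a, the alpha chain of C8, fell most, from 28.7, 33.3 and 35.5 CPM to 1.41, 0.716 and 0.490 CPM, which is -5.23 on the log2 scale (standard error 0.28, edgeR adjusted p = 1.2e-06). With 20, 12 and 8 counts on day 21, C8a passed the filter on low counts through the day-0 group alone, so that p is a description. C8b and C9, which the pore also needs, had at most 2 and 11 counts in any mouse. Susd4 was higher by 0.90 on the log2 scale. Cd59b, a paralog of Cd59a, was not called (-0.37, edgeR adjusted p = 0.512), and Cd55b had 0 counts in all mice.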

How the data were processed

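Kidney RNA of 3 day-0 (control) and 3 day-21 male C57BL/6J mice was measured by paired-end sequencing of 150-base reads. After alignment to a genome, the authors deposited gene counts for each single mouse, not normalized. The submitters' processing notes name TopHat and mm10, and the counting program and its strand setting are not given in the sources used here. All 55450 identifiers matched GENCODE mouse release 21 (GRCm38), which supplied symbols, positions and exons, and 28536 of these genes had no count. Total counts per mouse ran from 10963849 to 14333311. A floor of 3 counts per library (0.179 to 0.309 CPM) covers counting error only.

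Counts were filtered with filterByExpr (minimum count 10, minimum total 15), scaled by TMM and compared with edgeR's quasi-likelihood test in R, with Benjamini-Hochberg adjustment over all genes tested. A call needed a fold beyond 1.5 and an adjusted p below 0.05, the study's own limits. Standard errors and 95% intervals were derived from the F statistic. Versions were R 4.3.3, edgeR 4.0.16, limma 3.58.1, DESeq2 1.42.0 and Python 3.11.15. On simulated data, edgeR recovered 193 of 200 genes changed 3-fold among 16360 genes tested, with 8 false calls. The simulation gave every gene the same dispersion and changed far fewer genes than the 5821 called in the data. It shows that the code ran as intended and gives no error rate for these mice.

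All 33 members are named. Of the other complement genes, those called with a log2 fold change beyond 2 and the paralogs of members were to be named, and C8b, C9 and Susd4 were added after their values were seen. Not every gene of that list is reported here. Neighbours were genes within 50 kb of members at most 250 kb apart. The members and all lists were chosen with earlier results of these data known. Whether mice within a group came from separate cages or litters is not stated. Replicate numbers were not taken as pairs. The alternatives were other scalings, filters, thresholds and tools, a replicate block, and each mouse left out.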

Additional observations from a re-analysis of the deposited data

How the results depend on the processing

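Calls in 30 tested members were followed under 16 other fits. Of the 473 single-gene values, 443 kept direction and side of the threshold, and those that changed belonged to C1rl, Masp2, Colec11, Cfb, C7, C5ar2 and Cd59a. The number of members called higher stayed between 15 and 20. With library size alone, 2 members were called lower in place of 5, and over all genes 5985 were higher and 1338 lower in place of 3249 and 2572, while Masp2 (0.187) and Cd59a (0.256) changed sign. That scaling shifts the median of all genes to 0.421 (log2). With the limits set to 0.01 for the adjusted p and 2 for the fold, 2 members were lower, and 1918 genes were higher and 1254 lower overall. With no filter, or with no limit on the fold, 2 of the other complement genes were lower in place of 1. Leaving out each mouse gave 18 to 19 members higher and 3 to 5 lower, 5 to 7 of the other complement genes higher and 1 to 2 lower, and 2844 to 3242 of all genes higher and 2283 to 2708 lower. The lowest count of 3 came without day-0 replicate 2, without day-0 replicate 3 or without day-21 replicate 2. Cfd, which is not among the 30, is included in the count of lower members in several fits. These are the fits without day-0 replicate 1, without each of the day-21 mice, with no filter, and with a mean of at least 50 counts. In those fits fewer of the 30 were lower than the count given. DESeq2 called 19 members higher and 4 lower, and limma-voom the same numbers. The causes of these shifts were not tested.

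The deviations of same-numbered mice from their group means had correlations of -0.019, 0.165 and 0.0896, so the numbers were not taken as pairs. With the replicate number as a block, 18 members were higher and 4 lower, since Colec11 was not called (-1.21, edgeR adjusted p = 0.0743). Members with few counts, such as Hc, Cr2, Colec11, Fcna and Vsig4, are limited by depth.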
